A study of Gallus gallus with 5 samples.

Results

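The library from feather follicles overexpressing Wnt5a was set against the library from follicles in which the long noncoding RNA lnc3500 was knocked down, the closest pair among the 5 RNA-seq libraries of regenerating chicken wing flight feathers. Every gene with a mean of at least 1 FPKM (fragments mapped to a transcript, divided by its length and by the depth of the library) over the 5 libraries was used, which kept 11031 of the 17108 genes in the deposited table. To put the libraries on one scale, a gene's values were set against their geometric mean, and the median of these ratios over genes gave the factor for each library. The resulting values are called scaled FPKM here. Of the 11031 genes, 192 were at least 2-fold apart in the pair. A selection of them, low genes included, is described below, mostly with levels in all 5 libraries.

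The follicles were plucked to start regeneration, and genes were introduced or silenced in them with lentiviral vectors. The Wnt5a overexpression library came from follicles that received pLVX-Zsgreen, an expression vector with a green fluorescent reporter. The lnc3500 knockdown and lnc7831 knockdown libraries came from follicles that received the short hairpin vector pLL3.7, and the 2 wild-type libraries are labelled as such with no vector named. Each library was made from 5 pooled follicles, each treated group has 1 library, and no library from follicles carrying an empty vector was analysed here. The overexpressed gene, the silenced RNA and the vector backbone therefore differ together between the 2 libraries compared and cannot be told apart.

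The feather follicle holds a dermal papilla, a cluster of mesenchymal cells at its base that signals to the overlying epidermis as the feather regrows. WNT ligands are among these signals: they bind Frizzled receptors and either stabilise beta-catenin or, as WNT5A and WNT11 are best known for, act through beta-catenin-independent routes on cell polarity and movement. Long noncoding RNAs are transcripts with no known protein product, some of which regulate the level of other genes.

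Wnt5a overexpression and lnc3500 knockdown differed at fewer genes than any other pair of these libraries. The 192 genes were 1.74% of those tested, with 83 genes (0.752%) higher and 109 genes (0.988%) lower in Wnt5a overexpression. Wnt5a overexpression was 2-fold apart at 677 genes (6.14%) from lnc7831 knockdown, at 1499 (13.6%) from wild type 1 and at 922 (8.36%) from wild type 2. lnc3500 knockdown was 2-fold apart at 660 genes (5.98%) from lnc7831 knockdown, at 1484 (13.5%) from wild type 1 and at 797 (7.23%) from wild type 2. lnc7831 knockdown was so at 1355 genes (12.3%) from wild type 1 and at 827 (7.50%) from wild type 2. The 2 wild-type libraries were 2-fold apart at 1331 genes (12.1%), of which 929 (8.42%) were higher and 402 (3.64%) lower in wild type 2. The median absolute log2 difference was 0.16 for the compared pair and 0.36 for the wild types. Since the pair was chosen as the closest, its low count is a description. Wild type 1 stood apart from the rest: each of its 4 pairs had at least 1331 genes 2-fold apart. When wild type 1 was left out of the scaling and the filter, 203 genes of the compared pair passed, and 201 passed without wild type 2.

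**Figure D1:**
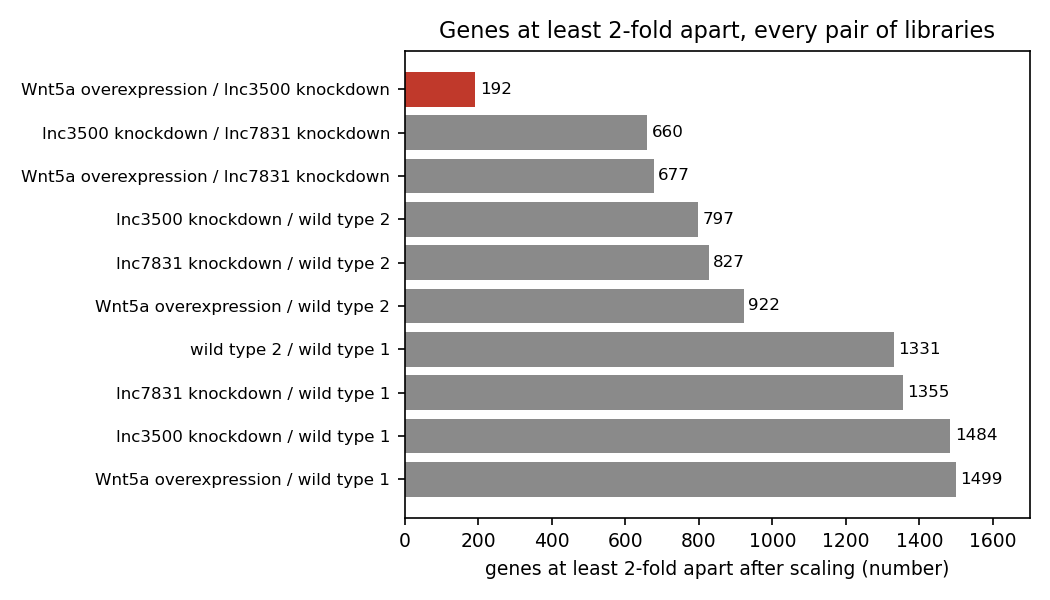
Bars give the number of tested genes at least 2-fold apart on the log2(scaled FPKM + 1) scale for each of the 10 pairs of libraries, with the first named library first in the comparison. The pair of Wnt5a overexpression and lnc3500 knockdown has 192 genes, against 660 for the next pair and 1331 for the wild types.

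No error can be measured within either treated group, so 2 rules were used beside the fold. By the first, the difference in the pair had to exceed the difference between the wild types for the same gene, and 141 genes (1.28%) did so, 61 of them higher (0.553%) and 80 lower (0.725%) in Wnt5a overexpression. By the second, limma was fitted to all 5 libraries, with the spread taken from the 2 wild types and from the trend over all genes. limma called 0 genes (0%) at a Benjamini-Hochberg adjusted p of 0.05, and 52 genes (0.471%) had an unadjusted p under 0.05. The lowest adjusted p was 0.0565, for the unnamed gene ENSGALG00000026592. With the scaling, the filter or the trend changed, or a library left out, limma called at most 2 genes. The standard errors (SE) below are from this fit, which assumes that the treated groups vary as the wild types do, and every gene named below had an adjusted p of 1 in limma, except ENSGALG00000026592 and gga-mir-3523 (0.112). With libraries scaled to equal sums of FPKM, 22 of the named differences, all on the lower side, came under 2-fold, and none of the 2-fold differences changed sign.

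The labelled targets were checked first. WNT5A (ENSGALG00000005410) had 65.0 scaled FPKM in Wnt5a overexpression and 36.7 in lnc3500 knockdown, against 128 in lnc7831 knockdown and 39.5 and 82.0 in the wild types. The Wnt5a overexpression library was thus above lnc3500 knockdown but inside the range of the wild types and below lnc7831 knockdown. The log2 difference of the pair was 0.81 (SE 0.68), smaller than the 1.04 between the wild types. The labels do not say which part of Wnt5a the vector carries, so how far this value counts the vector's own transcript was not tested. lnc3500 and lnc7831 are not named in the table, and their knockdown was not checked. ACTB, cytoskeletal beta-actin, had 4038 scaled FPKM in Wnt5a overexpression and 4594 in lnc3500 knockdown, a log2 difference of −0.19 (SE 0.48) that turned to 0.41 with equal sums. GAPDH, a glycolytic enzyme, had 3047 scaled FPKM in Wnt5a overexpression and 2906 in lnc3500 knockdown, a log2 difference of 0.07 (SE 0.57).

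The samples are labelled dermal papilla as the source and feather follicle as the tissue. Of 11 dermal papilla markers found in the table, 9 in Wnt5a overexpression and 8 in lnc3500 knockdown reached 1 scaled FPKM, and HHIP and CORIN were under 1 in both. Of 11 epidermal markers 10 also reached 1 in both libraries, with KRT5 listed at 0 in all 5, as did all 4 macrophage, all 4 endothelial and all 4 muscle markers in the table. The libraries thus held transcripts of several follicle compartments. The red cell markers HBAD, HBAA and HBE were listed at 0 in all 5 libraries, while HBG2 had 18.7 scaled FPKM in Wnt5a overexpression and 22.3 in lnc3500 knockdown. Of 4 B cell markers, IGJ and MZB1 reached 1 in both libraries, and CD79B and Pax5 were under 1 in both. Of 5 T cell markers 3 reached 1 in each library, and CD28 and CD4 were under 1 in both. Melanocyte markers were mostly low: of 6, 1 in Wnt5a overexpression and 3 in lnc3500 knockdown reached 1. PMEL, DCT and TYR were under 1 in both. In such bulk libraries fewer cells of a type and less RNA per cell cannot be told apart.

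Many of the 192 genes were low. In 105 of them the higher library of the pair had under 10 scaled FPKM, and 87 reached 10, out of 6427 tested genes that did. The share past 2-fold was 3.39% among genes with a mean under 5 scaled FPKM, 1.2% between 5 and 20, 1.07% between 20 and 100, and 2.08% at 100 and above. Of the 192, 52 were listed at 0 in at least 1 library, and 140 were above 0 in all 5, with 57 higher and 83 lower in Wnt5a overexpression. Of all 11031 tested genes, 10849 were above 0 in all 5 libraries, and the 140 were 1.29% of these. Genes listed at 0 were thus more common among the 192 than among all tested genes. The genes also varied between the wild types: 76 of the 192 (39.6%) were 2-fold apart there, against 12.1% of all tested genes. These 76 were 5.71% of the 1331 genes 2-fold apart between the wild types, against 1.74% of all tested genes 2-fold apart in the pair.

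Either library of the pair could be the one that stood apart. Among the 83 higher genes, Wnt5a overexpression alone lay above the other 3 libraries in 20, lnc3500 knockdown alone lay below them in 22, and in 11 both did so, on opposite sides. Both libraries lay above the other 3 in 6 of these genes, both lay below them in 6, and both lay within their range in 18. Among the 109 lower genes, Wnt5a overexpression alone lay below the other 3 libraries in 43, lnc3500 knockdown alone lay above them in 30, and in 13 both did so, on opposite sides. Both lay above the other 3 in 5 of the lower genes, both lay below them in 5, and both lay within their range in 13. The other 3 libraries are lnc7831 knockdown and the wild types. The genes counted here were chosen for a large difference within the pair, which by itself can place either library outside the other 3. No such counts are given for all tested genes, so these counts only describe the chosen genes.

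**Figure D2:**
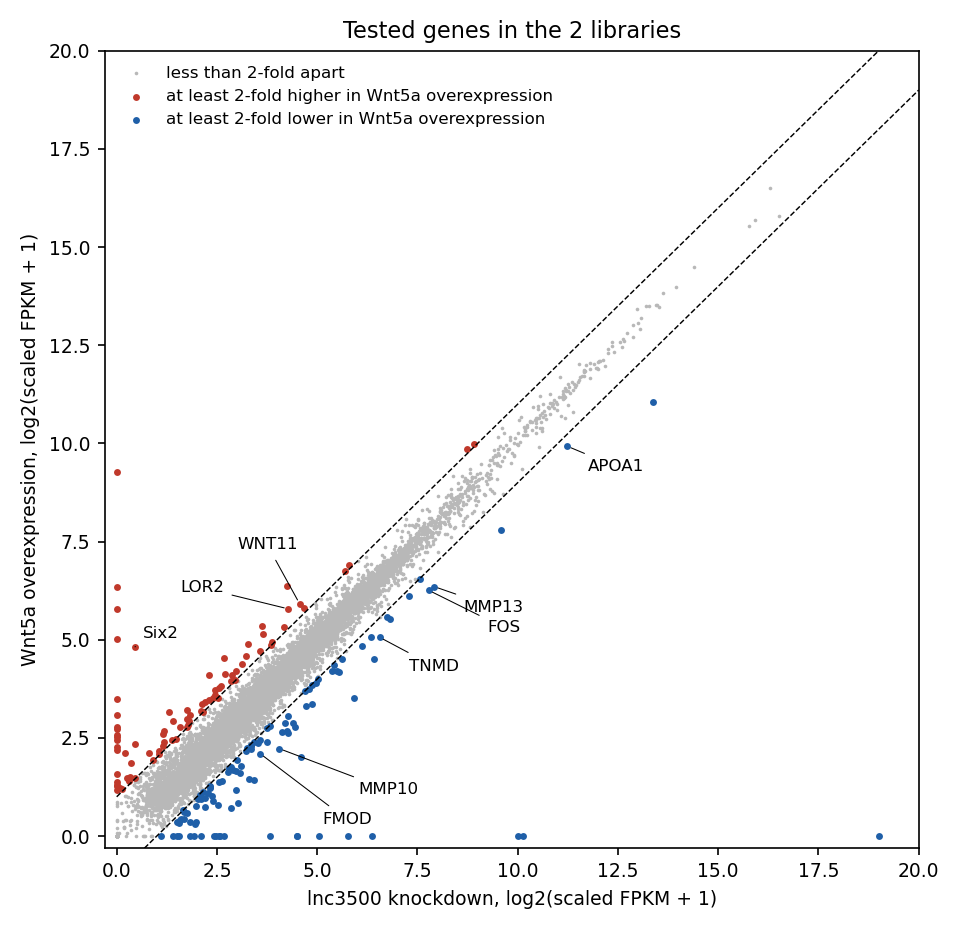
Each point is 1 of 11031 tested genes, with log2(scaled FPKM + 1) in lnc3500 knockdown on the x axis and in Wnt5a overexpression on the y axis, and dashed lines at 2-fold. The 83 red points are at least 2-fold higher and the 109 blue points at least 2-fold lower in Wnt5a overexpression, and points on the axes are listed at 0 in 1 library.

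The largest difference among genes above 0 in all 5 libraries belonged to Six2 (ENSGALG00000023303), a homeobox transcription factor known in mouse for keeping kidney progenitors undifferentiated. Six2 had 27.2 scaled FPKM in Wnt5a overexpression and 0.373 in lnc3500 knockdown, against 2.18 in lnc7831 knockdown and 0.233 and 1.23 in the wild types. Wnt5a overexpression alone was high. The log2 difference was 4.36 (SE 0.62), with an unadjusted p of 0.0028 and an adjusted p of 1 in limma.

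The secreted signals WNT11 and INHBB were at least 2-fold higher in Wnt5a overexpression. WNT11, a ligand of the beta-catenin-independent branch, had 59.5 scaled FPKM in Wnt5a overexpression and 22.6 in lnc3500 knockdown, against 179 in lnc7831 knockdown and 52.6 and 60.7 in the wild types. Wnt5a overexpression lay at the wild-type level, lnc3500 knockdown was the lowest library and lnc7831 knockdown the highest. The log2 difference was 1.36 (SE 0.43), against 0.20 between the wild types. INHBB, a subunit of activin and inhibin, had 1.67 scaled FPKM in Wnt5a overexpression and 0.236 in lnc3500 knockdown, against 7.30 in lnc7831 knockdown and 6.10 and 3.35 in the wild types. Both libraries of the pair were below the other 3 here, and the log2 difference was 1.11 (SE 0.54).

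LOR2, a loricrin of the cornified envelope that seals outer epidermal cells, had 54.2 scaled FPKM in Wnt5a overexpression and 18.4 in lnc3500 knockdown. It had 5.82 in lnc7831 knockdown and 3.96 and 8.70 in the wild types, so both libraries of the pair were above the other 3. The log2 difference was 1.51 (SE 0.61). CLDN10, a tight junction claudin, had 1.86 scaled FPKM in Wnt5a overexpression and 0.266 in lnc3500 knockdown, against 3.22 in lnc7831 knockdown and 0.646 and 1.35 in the wild types. lnc3500 knockdown was the lowest library for CLDN10, and the log2 difference was 1.18 (SE 0.55). F-KER, a feather keratin, was listed at 0 in lnc7831 knockdown and is named for its list only. It had 8.18 scaled FPKM in Wnt5a overexpression and 2.38 in lnc3500 knockdown, against 0.315 and 3.32 in the wild types.

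For several genes of the higher side, lnc3500 knockdown was the lowest of the 5 libraries. RGS10, a regulator of G protein signalling found in leukocytes and other cells, had 19.9 scaled FPKM in Wnt5a overexpression and 7.70 in lnc3500 knockdown, against 12.7 in lnc7831 knockdown and 18.9 and 19.7 in the wild types. Its log2 difference was 1.27 (SE 0.36), with 0.06 between the wild types. FKBP1B, an immunophilin that binds ryanodine receptor calcium channels, had 11.2 scaled FPKM in Wnt5a overexpression and 4.47 in lnc3500 knockdown, against 9.60 in lnc7831 knockdown and 12.6 and 10.7 in the wild types. The log2 difference was 1.15 (SE 0.37). The RNA of the ribonuclease MRP, which cleaves ribosomal RNA precursors, had 39.8 scaled FPKM in Wnt5a overexpression and 11.4 in lnc3500 knockdown. The other 3 libraries had 43.9, 59.5 and 42.1, so both libraries of the pair lay below them for RNase_MRP, Wnt5a overexpression narrowly, and the log2 difference was 1.72 (SE 0.47).

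The chemokine CCL4, which attracts leukocytes, stood in the table under 2 identifiers, and reads may be split between such like-named copies. CCL4 as ENSGALG00000000956 had 16.2 scaled FPKM in Wnt5a overexpression and 3.97 in lnc3500 knockdown, against 7.72 in lnc7831 knockdown and 12.7 and 20.3 in the wild types. CCL4 as ENSGALG00000000951 had 16.4 in Wnt5a overexpression and 5.54 in lnc3500 knockdown, against 25.4 in lnc7831 knockdown and 42.1 and 9.63 in the wild types. lnc3500 knockdown was the lowest library for both CCL4 entries, with log2 differences of 1.79 (SE 0.48) and 1.41 (SE 1.11), and the second was smaller than the wild-type difference of −2.02. YPEL1, a member of the Yippee-like family, had 39.2 scaled FPKM in Wnt5a overexpression and 17.0 in lnc3500 knockdown, against 64.0 in lnc7831 knockdown and 17.2 and 33.0 in the wild types. Asip, the agouti protein that switches pigment cells to pheomelanin, had 7.98 scaled FPKM in Wnt5a overexpression and 1.46 in lnc3500 knockdown. Its wild types had 18.1 and 0.694, a spread that took in both libraries, and the log2 difference of 1.87 for Asip had an SE of 1.85.

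Genes lower in Wnt5a overexpression included matrix proteins and the enzymes that degrade them. MMP13, a collagenase, had 80.7 scaled FPKM in Wnt5a overexpression and 241 in lnc3500 knockdown, against 46.5 in lnc7831 knockdown and 73.9 and 189 in the wild types. lnc3500 knockdown was the highest library for MMP13, and the log2 difference was −1.56 (SE 0.82). MMP10, a stromelysin, had 3.68 scaled FPKM in Wnt5a overexpression and 15.6 in lnc3500 knockdown, against 3.71 in lnc7831 knockdown and 26.9 and 9.77 in the wild types. Wnt5a overexpression and lnc7831 knockdown were alike and low, and the log2 difference of MMP10 was −1.82 (SE 0.80).

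Tendon and ligament genes were among them. TNMD, tenomodulin, a membrane glycoprotein of tendons, had 32.4 scaled FPKM in Wnt5a overexpression and 93.0 in lnc3500 knockdown, against 15.2 in lnc7831 knockdown and 35.3 and 19.8 in the wild types. lnc3500 knockdown alone was high, and the log2 difference was −1.49 (SE 0.57). FMOD, fibromodulin, a proteoglycan that binds collagen fibrils, had 3.29 scaled FPKM in Wnt5a overexpression and 10.9 in lnc3500 knockdown, against 5.34 in lnc7831 knockdown and 6.68 and 7.18 in the wild types. Here Wnt5a overexpression was the lowest and lnc3500 knockdown the highest of the 5, with a log2 difference of −1.48 (SE 0.36) and 0.09 between the wild types.

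Other matrix genes lay on both sides. OSF-2, a synonym of POSTN in RefSeq and thus periostin, a matrix protein of connective tissue, had 45.5 scaled FPKM in Wnt5a overexpression and 112 in lnc3500 knockdown, against 38.4 in lnc7831 knockdown and 96.8 and 66.3 in the wild types. The log2 difference of OSF-2 was −1.28 (SE 0.50). HAPLN3, a link protein between hyaluronan and proteoglycans, had 17.1 scaled FPKM in Wnt5a overexpression and 45.5 in lnc3500 knockdown, against 21.2 in lnc7831 knockdown and 11.6 and 18.6 in the wild types. lnc3500 knockdown alone was high for HAPLN3, with a log2 difference of −1.36 (SE 0.50). FBLN5, fibulin 5, which organises elastic fibres, had 12 scaled FPKM in Wnt5a overexpression and 25.1 in lnc3500 knockdown, with 14, 10.9 and 6.61 in the other 3 libraries. ACAN, the cartilage proteoglycan aggrecan, had 6.33 scaled FPKM in Wnt5a overexpression and 20.2 in lnc3500 knockdown, against 5.75 in lnc7831 knockdown and 3.74 and 13.3 in the wild types. The log2 difference of ACAN was −1.53, smaller in size than the 1.60 between the wild types. ACAN was picked out after its values were seen, as were ABI3BP, a matrix protein that binds collagen, LTBP2, which binds fibrillin microfibrils, THBS4, a thrombospondin, and HAPLN1, another link protein. ABI3BP had 1.71 scaled FPKM in Wnt5a overexpression and 8.77 in lnc3500 knockdown, and LTBP2 had 17.3 in Wnt5a overexpression and 40.3 in lnc3500 knockdown. THBS4 and HAPLN1 lay the other way, just under 2-fold on the log2(scaled FPKM + 1) scale. THBS4 had 3.21 scaled FPKM in Wnt5a overexpression and 1.11 in lnc3500 knockdown, and HAPLN1 had 2.03 in Wnt5a overexpression and 0.547 in lnc3500 knockdown.

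Immediate early genes are those that cells switch on within minutes of a stimulus or of dissection, and FOS and CYR61 were the members of that list past 2-fold. FOS, a subunit of the transcription factor AP-1, had 75.6 scaled FPKM in Wnt5a overexpression and 219 in lnc3500 knockdown, against 447 in lnc7831 knockdown and 195 and 471 in the wild types. Wnt5a overexpression alone was low, and the log2 difference was −1.52 (SE 0.80), with 1.27 between the wild types. CYR61, a matricellular protein induced by growth factors and by mechanical load, had 32.5 scaled FPKM in Wnt5a overexpression and 80.5 in lnc3500 knockdown, against 216 in lnc7831 knockdown and 216 and 82.4 in the wild types. The log2 difference of CYR61, −1.28 (SE 0.84), was smaller in size than the −1.38 between the wild types. APOLD1, an endothelial immediate early gene outside the list used here, had 17.5 scaled FPKM in Wnt5a overexpression and 43.7 in lnc3500 knockdown, against 33.5 in lnc7831 knockdown and 29.4 and 20.7 in the wild types. APOLD1 was lowest in Wnt5a overexpression and highest in lnc3500 knockdown, with a log2 difference of −1.27 (SE 0.46).

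Among genes of excitable or contractile cells, RRAD, a small GTPase that restrains calcium channels, had 5.22 scaled FPKM in Wnt5a overexpression and 18.4 in lnc3500 knockdown, against 7.35 in lnc7831 knockdown and 4.75 and 3.09 in the wild types. CACNG3, an auxiliary subunit of AMPA-type glutamate receptors, had 5.24 scaled FPKM in Wnt5a overexpression and 16.3 in lnc3500 knockdown, against 3.24 in lnc7831 knockdown and 2.01 and 1.51 in the wild types. lnc3500 knockdown was the highest library for both, alone above the other 3 for RRAD and followed by Wnt5a overexpression for CACNG3, with log2 differences of −1.64 (SE 0.43) for RRAD and −1.47 (SE 0.40) for CACNG3. APOA1, the main protein of high-density lipoprotein, had 974 scaled FPKM in Wnt5a overexpression and 2407 in lnc3500 knockdown, against 1494 in lnc7831 knockdown and 3241 and 2260 in the wild types. For APOA1 it was Wnt5a overexpression that stood lowest, and the log2 difference was −1.30 (SE 0.55). NTN3, a netrin, had 6.39 scaled FPKM in Wnt5a overexpression and 17.4 in lnc3500 knockdown, against 27.0 in lnc7831 knockdown and 17.4 and 11.4 in the wild types, and was again lowest in Wnt5a overexpression.

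Signalling genes past 2-fold on the lower side were mostly low or variable in the wild types. GREM1, a secreted antagonist of BMPs, had 8.93 scaled FPKM in Wnt5a overexpression and 25.5 in lnc3500 knockdown, against 36.8 in lnc7831 knockdown and 40.2 and 5.64 in the wild types. The log2 difference of GREM1 was −1.42 (SE 1.42), and that between the wild types was −2.63. LGR5, a receptor for R-spondins that marks stem cells in several epithelia, had 0.971 scaled FPKM in Wnt5a overexpression and 3.60 in lnc3500 knockdown, against 4.0 in lnc7831 knockdown and 5.05 and 2.54 in the wild types. FGF18, a fibroblast growth factor, had 0.332 scaled FPKM in Wnt5a overexpression and 2.0 in lnc3500 knockdown, against 1.45 in lnc7831 knockdown and 3.44 and 3.58 in the wild types. Wnt5a overexpression was the lowest library for both LGR5 and FGF18, with log2 differences of −1.22 (SE 0.57) and −1.17 (SE 0.44). CRABP-I, which binds retinoic acid in the cytoplasm, had 19.5 scaled FPKM in Wnt5a overexpression and 42.0 in lnc3500 knockdown, but 387 and 4.11 in the wild types, so its log2 difference of −1.07 lay well inside the wild-type spread of −6.25.

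**Figure D3:**
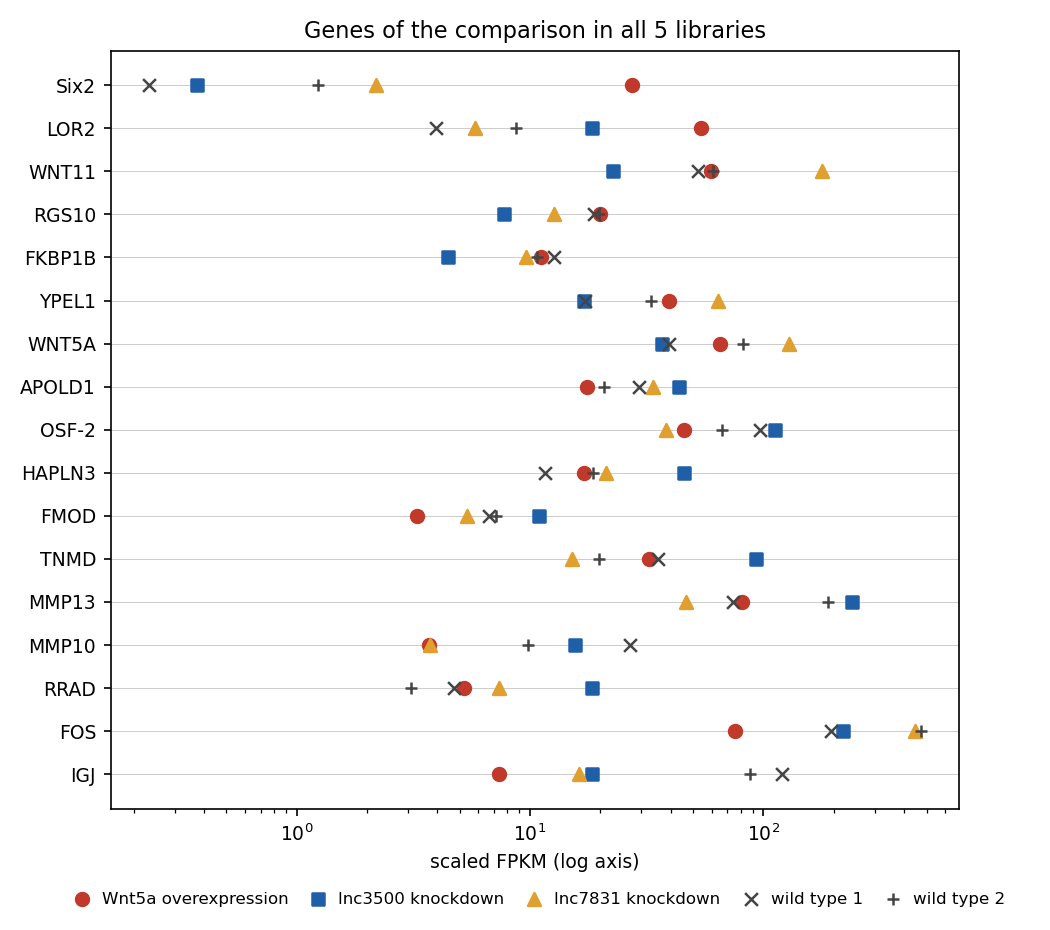
Scaled FPKM on a log axis for 17 genes in each of the 5 libraries, 1 symbol per library, with no error bars since each symbol is 1 library. Six2 is high in Wnt5a overexpression alone (27.2), TNMD, HAPLN3 and RRAD are high in lnc3500 knockdown alone, and FOS is low in Wnt5a overexpression alone (75.6).

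Over 47 lists, 23 genes, each counted once, passed 2-fold, and 192 (1.74%) of all 11031 tested genes did. The genes of all lists together were not counted once each. The 23 therefore have no share to compare with the 1.74%. Of these lists 23 had a median above the median log2 difference of all tested genes, which was 0.01. Over all tested genes 52.0% had a difference above 0 and 47.5% below 0, and at a smaller size of 1.5-fold, chosen after the data were seen, 7.16% differed, 3.09% being higher and 4.07% lower in Wnt5a overexpression. Scaling by the sum of all genes moved the median of all genes to 0.55, since ENSGALG00000026592 held 32.6% of the summed FPKM of lnc3500 knockdown. List medians are therefore read against the median of all genes. The list directions given below held under every scaling tried, with the exceptions named. Some lists share genes, such as LGR5 and GREM1, so the directions of related lists are not independent.

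Of 25 epidermal cell markers 24 had a difference above 0, with a median of 0.30 and 3 genes past 1.5-fold, and their summed scaled FPKM was 10870 in Wnt5a overexpression and 9122 in lnc3500 knockdown, against 8267 in lnc7831 knockdown and 4718 and 5712 in the wild types. All 9 desmosome genes, which rivet epidermal cells together, had differences above 0 with a median of 0.29, none past 1.5-fold. PERP, a desmosomal membrane protein, had 605 scaled FPKM in Wnt5a overexpression and 450 in lnc3500 knockdown, against 322 in lnc7831 knockdown and 318 and 269 in the wild types. Both libraries of the pair were above the other 3 for PERP, as they were for plakoglobin, JUP, with 1357 in Wnt5a overexpression and 1150 in lnc3500 knockdown. Of 13 late keratinocyte genes 12 lay above 0, with a median of 0.35. Where these epidermal lists share genes, their directions are not separate results. Other epithelial lists were split: 3 of 7 claudins lay above 0, with a median of −0.18 that turned above that of all genes when the filter was dropped or raised to 5 FPKM, and 9 of 16 hemidesmosome and basement membrane genes, with a median of 0.08. GRHL2, a transcription factor of epithelial barrier genes, had 7.37 scaled FPKM in Wnt5a overexpression and 3.87 in lnc3500 knockdown, with 3.87, 3.63 and 3.46 in the other 3 libraries. Whether these levels bear on the difference of LOR2 was not tested.

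Of 19 macrophage and pan-leukocyte genes 18 had a difference above 0, with a median of 0.50 and 5 genes past 1.5-fold. Between the wild types 18 of the 19 also lay above 0, with a median of 0.39. The sum of these genes was 720.1 scaled FPKM in Wnt5a overexpression and 493 in lnc3500 knockdown, against 756 in lnc7831 knockdown and 511 and 1006 in the wild types. SPI1, the transcription factor PU.1 of myeloid cells, had 12.6 scaled FPKM in Wnt5a overexpression and 6.0 in lnc3500 knockdown, against 14.7 in lnc7831 knockdown and 15.3 and 26 in the wild types. lnc3500 knockdown was the lowest library for SPI1, for the lysosomal protein LAPTM5 (88.4 in Wnt5a overexpression, 54.1 in lnc3500 knockdown) and for the macrophage sum. Of 21 interferon-stimulated genes 19 lay above 0, with a median of 0.20, smaller than the 0.80 between the wild types. The 14 T cell genes had a median of 0.10 with 1 gene past 1.5-fold, and the median lay below that of all genes when libraries were scaled to equal sums.

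Of 7 B cell and plasma cell genes 5 lay below 0, with a median of −0.43 and 2 genes past 2-fold. IGJ, the joining chain of secreted antibodies, had 7.39 scaled FPKM in Wnt5a overexpression and 18.4 in lnc3500 knockdown, against 16.2 in lnc7831 knockdown and 120 and 87.6 in the wild types. MZB1, a chaperone of antibody assembly, had 1.43 scaled FPKM in Wnt5a overexpression and 4.06 in lnc3500 knockdown, against 1.95 in lnc7831 knockdown and 36.3 and 41.2 in the wild types. Wnt5a overexpression was the lowest library for both, and all 3 treated libraries lay under both wild types. The log2 difference was −1.21 (SE 0.45) for IGJ and −1.05 (SE 0.36) for MZB1. The unnamed gene ENSGALG00000021139 had the same order, with 219 scaled FPKM in Wnt5a overexpression and 763 in lnc3500 knockdown, against 480 in lnc7831 knockdown and 3314 and 3516 in the wild types.

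Dermal lists lay slightly lower in Wnt5a overexpression than in lnc3500 knockdown. Of 18 dermal papilla markers 14 had a difference below 0, with a median of −0.19, 5 genes past 1.5-fold and GREM1 past 2-fold. The sum of these markers was 556 scaled FPKM in Wnt5a overexpression and 649 in lnc3500 knockdown, with 546 and 669 in the wild types. FGF10, a mesenchymal growth factor for epithelium, had 25.5 scaled FPKM in Wnt5a overexpression and 51.7 in lnc3500 knockdown, against 23.0 in lnc7831 knockdown and 24.7 and 29.0 in the wild types. lnc3500 knockdown alone was high for FGF10, with a log2 difference of −0.99 (SE 0.40), just under 2-fold on the log2(scaled FPKM + 1) scale. Of 26 dermal matrix genes 21 lay below 0, with a median of −0.17, against −0.24 between the wild types. FMOD and FBLN5 passed 2-fold. The dermal matrix sum was 6876 scaled FPKM in Wnt5a overexpression and 7694 in lnc3500 knockdown, with 6517 and 6117 in the wild types. Of 28 collagen chains 19 lay below 0, with a median of −0.19 and 0 past 2-fold. Their sum was 4815 scaled FPKM in Wnt5a overexpression and 5688 in lnc3500 knockdown, with 4169 and 3906 in the wild types. For the dermal matrix and collagen sums, Wnt5a overexpression thus lay above both wild types. The 37 matrix proteases and inhibitors had a median of −0.12, with MMP10 and MMP13 past 2-fold.

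Contractile genes lay lower in Wnt5a overexpression as a list, with 15 of 16 below 0, a median of −0.38, 4 genes past 1.5-fold and 0 past 2-fold. Their summed scaled FPKM was 4888 in Wnt5a overexpression and 6795 in lnc3500 knockdown, against 4196 in lnc7831 knockdown and 4173 and 4755 in the wild types, so lnc3500 knockdown was the highest library. MYOCD, the coactivator of smooth muscle genes, had 14.4 scaled FPKM in Wnt5a overexpression and 26.2 in lnc3500 knockdown, against 7.39 in lnc7831 knockdown and 10.2 and 13.7 in the wild types. DES, the muscle intermediate filament desmin, had 242 in Wnt5a overexpression and 394 in lnc3500 knockdown, but 407 and 221 in the wild types. CSRP2 was the exception, with 268 in Wnt5a overexpression and 182 in lnc3500 knockdown. The muscle marker sum was 2214 in Wnt5a overexpression and 3221 in lnc3500 knockdown, and its part in the lower values of TNMD, RRAD and the matrix genes was not tested.

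Of 18 immediate early genes and NR4A receptors 14 lay below 0, with a median of −0.35, against 0.20 between the wild types, and FOS and CYR61 passed 2-fold. NR4A3, an orphan nuclear receptor induced by stress, had 18.0 scaled FPKM in Wnt5a overexpression and 32.3 in lnc3500 knockdown, against 18.8 in lnc7831 knockdown and 4.54 and 5.33 in the wild types. Of 36 cell cycle genes 33 lay below 0, with a median of −0.31 and 0 past 2-fold, smaller in size than the −0.57 between the wild types. Their sum was 846 scaled FPKM in Wnt5a overexpression and 1065 in lnc3500 knockdown, within the range of the other 3 libraries for lnc3500 knockdown and just below it for Wnt5a overexpression.

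In the WNT lists the genes past 2-fold were WNT11 and LGR5, beside 1.74% of all tested genes past 2-fold. Of 12 WNT ligands 7 had a difference above 0, with a median of 0.20, against 0.94 between the wild types. WNT11 alone of the ligands passed 2-fold. WNT4, a ligand of epidermis and dermis, had 162 scaled FPKM in Wnt5a overexpression and 103 in lnc3500 knockdown, against 41.4 in lnc7831 knockdown and 24.2 and 120 in the wild types. Of 14 Frizzled receptors and co-receptors 12 lay below 0, with a median of −0.22, and LGR5 alone passed 2-fold. Of 12 secreted WNT antagonists 9 lay below 0, with a median of −0.28 and 0 past 2-fold. The exception of largest size was NOTUM, a deacylase that inactivates WNT ligands, with 23.0 in Wnt5a overexpression and 12.3 in lnc3500 knockdown, against 33.9 in lnc7831 knockdown and 9.997 and 32.5 in the wild types. The 24 genes of noncanonical WNT signalling and planar polarity had a median of −0.05 with 0 past 1.5-fold, and the 14 beta-catenin targets had a median of −0.05 with LGR5 past 2-fold, and the median of the targets lay above that of all genes under the filter of 5 FPKM.

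Among other signalling lists, the median was −0.15 over 12 Hedgehog genes, of which 9 lay below 0, −0.00 over 27 BMP and TGF-beta genes, where INHBB and GREM1 passed 2-fold in opposite directions, and −0.04 over 20 Notch genes, where it lay above that of all genes with no filter. It was −0.21 over 18 FGF genes, of which 14 lay below 0 and FGF18 alone passed 2-fold. Between the wild types the median was 0.57 for Hedgehog, 0.09 for BMP and TGF-beta, 0.34 for Notch and 0.25 for FGF genes. Each was larger in size than that of the pair. Of 23 HOX genes, which set position along the body and limb, 13 lay below 0 and 3 above, with a median of −0.11. Listed at 0 were 7 of them in Wnt5a overexpression, 7 in lnc3500 knockdown and 7 in lnc7831 knockdown, against 0 and 3 in the wild types. A gene listed at 0 in a library passed the filter on mean FPKM only through its other libraries. The filter thus partly sets these counts, and no contrast of treated with wild-type libraries is read from them. A gene at 0 in both libraries of the pair has a difference of 0, which enters the median. Of 23 patterning factors 16 lay below 0, with a median of −0.13, against 0.29 between the wild types, and Six2 alone passed 2-fold.

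The 14 pigment cell genes had a median of −0.05, with Asip on the higher and MLANA on the lower side of 2-fold, and their median lay above that of all genes under the filter of 5 FPKM. MLANA, a melanosome protein, had 0.489 scaled FPKM in Wnt5a overexpression and 2.4 in lnc3500 knockdown, against 8.39 in lnc7831 knockdown and 5.78 and 1.71 in the wild types. Wnt5a overexpression was the lowest library for MLANA, but its log2 difference of −1.19 was smaller in size than the −1.32 between the wild types. Both feather keratins tested lay higher in Wnt5a overexpression, with a median of 1.18 against 3.01 between the wild types, and 4 of 5 alpha keratins lay above 0, with a median of 0.23 against 1.08 between the wild types. The feather keratin BKJ had 58.2 scaled FPKM in Wnt5a overexpression and 30.1 in lnc3500 knockdown, and 5.24 and 122 in the wild types, so the pair lay inside the wild-type range. Of 158 solute carriers 93 lay above 0, with a median of 0.05 that lay below that of all genes under the filter of 5 FPKM, and SLC35E4 alone passed 2-fold. SLC35E4, an orphan member of a nucleotide sugar transporter family, had 21.8 scaled FPKM in Wnt5a overexpression and 47.9 in lnc3500 knockdown, against 12.1 in lnc7831 knockdown and 0.876 and 12.8 in the wild types. The log2 difference of SLC35E4, −1.10 (SE 1.54), was smaller in size than the 2.87 between the wild types. SLC15A1, a peptide transporter, had 8.20 scaled FPKM in Wnt5a overexpression and 3.63 in lnc3500 knockdown, against 3.09 in lnc7831 knockdown and 0.204 and 0.553 in the wild types. Wnt5a overexpression was the highest library for SLC15A1, and its log2 difference of 0.99 (SE 0.47) was just under 2-fold on the log2(scaled FPKM + 1) scale.

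Among lists of metabolism and basic cell functions, 55 of 59 cytosolic ribosomal proteins lay above 0 with a median of 0.13. Between the wild types 11 of the 59 lay above 0, with a median of −0.40, larger in size than that of the pair. In the respiratory chain 39 of 57 genes lay above 0, with a median of 0.07, against −0.24 between the wild types. NDUFB1 alone passed 2-fold there, and was listed at 0 in lnc3500 knockdown. Of 73 heat shock proteins and chaperones 0 passed 2-fold, and the small heat shock protein HSPB1 had 305 scaled FPKM in Wnt5a overexpression and 557 in lnc3500 knockdown, against 234 in lnc7831 knockdown and 238 and 430 in the wild types. Of 33 fatty acid and triglyceride genes 23 lay above 0, with a median of 0.22, against −0.49 between the wild types, and 4 genes past 1.5-fold on each side. Sterol synthesis enzymes had a median of 0.16, against −0.75 between the wild types, with 14 of 19 above 0. The 19 endothelial genes had a median of −0.13, with 16 below 0. Between the wild types the endothelial median was 0.50, with 15 genes above 0.

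**Figure D4:**
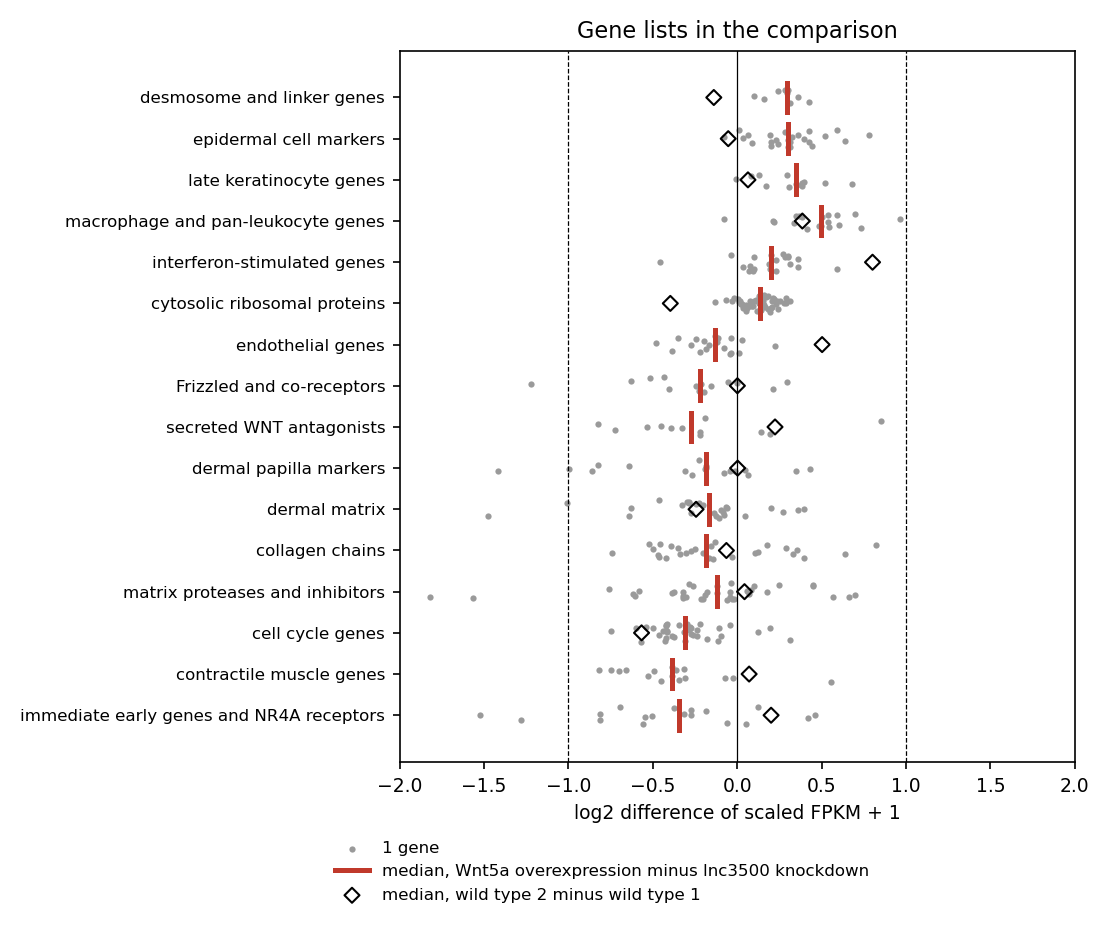
Each grey point is the log2(scaled FPKM + 1) difference of 1 gene, Wnt5a overexpression minus lnc3500 knockdown, for 16 gene lists; red bars are list medians, diamonds the medians of wild type 2 minus wild type 1, and dashed lines 2-fold. The 9 desmosome genes all lie above 0 and 15 of 16 contractile genes below 0, and the diamonds of several lists lie farther from 0 than the red bars.

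Some genes were listed at 0 in 1 library of the pair and high in the other, and no fold is given for them. Of the genes listed at 0 in lnc3500 knockdown, 5 had at least 10 scaled FPKM in Wnt5a overexpression. The highest were the small nuclear RNA U2 (622 in Wnt5a overexpression), the small nucleolar RNA U3 under ENSGALG00000027959 (80.4) and NDUFB1 (54.4). NDUFB1, a subunit of respiratory complex I, was listed at 0 in the other 4 libraries. Whether such values of 0, or the lone value above 0, are failed estimates was not tested. A further 9 genes were listed at 0 in Wnt5a overexpression, led by ENSGALG00000026592, gga-mir-3523 and ENSGALG00000028955. ENSGALG00000026592 had 530941 scaled FPKM in lnc3500 knockdown, 369682 in lnc7831 knockdown and 266931 and 266171 in the wild types. The microRNA gene gga-mir-3523 had 1114 in lnc3500 knockdown and 2378 in lnc7831 knockdown, and was listed at 0 in both wild types.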

How the data were processed

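The authors deposited 1 table of FPKM values per gene for 5 libraries. Reads were processed with TopHat2 2.1.0 and Cufflinks 2.2.1 on galGal4, per the submitters' processing notes. FPKM keep no counts, so the number of fragments per library is unknown and no count test was used. Of 175 genes above 0 but under 0.15 FPKM in both libraries of the pair, 71 had values near 1 common ratio of 1.19 (within 0.06 on the log2 scale), Wnt5a overexpression over lnc3500 knockdown, the ratio that equal small fragment numbers would give if the Wnt5a overexpression library held fewer fragments. Deposited FPKM summed to between 860352 (wild type 2) and 2097890 (lnc7831 knockdown). Libraries were put on one scale by median-ratio factors (1.16 for Wnt5a overexpression, 1.19 for lnc3500 knockdown), genes with a mean under 1 FPKM were left out, and differences were taken as log2(scaled FPKM + 1), which understates changes of low genes. A log2 difference of 1 or more was counted as 2-fold. limma 3.58.1 in R 4.3.3 was fitted with a trend to all 5 libraries, which left 1 residual degree of freedom. Data were simulated with the wild-type spread averaged over genes of like level, whereas real genes of like level differ in spread. In the simulated data limma called a mean of 6.4 unchanged genes. It called 0.8% of log2 changes of 1, 23.2% of log2 changes of 2, 90.8% of log2 changes of 4 and 100% of log2 changes of 8. These shares may not hold for the real libraries. With 1 residual degree of freedom, a call of 0 genes does not show that the pair is alike. A mean of 1951.8 unchanged genes passed 2-fold in the simulated data. This was more than the 1331 genes between the wild types and the 192 genes in the pair, so the simulated spread was too wide for either.

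Genes were named if above 0 in all 5 libraries, at least 2-fold apart, beyond the wild-type difference and at 10 or more scaled FPKM (the 15 largest in each direction, unnamed identifiers mostly left out), or if members of a gene list past 2-fold. Genes and lists were chosen with earlier results of these data known, and the name pattern for feather keratins was corrected after the gene names were seen. List members under 2-fold were picked after their values were seen. Labels do not say whether the 2 wild-type libraries came from separate animals, so p-values measure only the spread between them. No sequence or coordinate was used here.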

Additional observations from a re-analysis of the deposited data

How the results depend on the processing

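Against 192 genes 2-fold apart, 558 passed (517 higher and 41 lower in Wnt5a overexpression) with libraries scaled to equal sums, where the median of all genes moved to 0.55 and 403 genes exceeded the wild-type difference. The share of higher genes was then 92.7%, against 43.2%. With a pseudocount of 0.1, 408 passed (181 higher, 227 lower), 291 beyond the wild-type difference. With a mean of at least 5 FPKM, 109 passed (45 higher, 64 lower), 68 beyond it. Among genes at 10 scaled FPKM in 1 library of the pair, chosen after seeing the data, 87 passed (37 higher, 50 lower), 56 beyond it, and at 1.5-fold 790 passed (341 higher, 449 lower). Leaving out each other library in turn gave 183 to 203 genes, and 135 beyond the wild-type difference without lnc7831 knockdown. Values as deposited, scaling on the pair alone, upper quartiles and no filter gave 187 to 229. limma called 1 gene without lnc7831 knockdown, with equal sums, with the filter of 5 FPKM and with no trend, and 2 with upper quartiles and among genes at 10 scaled FPKM; these were ENSGALG00000026592 and gga-mir-3523, both listed at 0 in Wnt5a overexpression. The cause of these shifts was not tested beyond what the settings themselves change. With equal sums WNT5A passed 2-fold, at 1.39, and ACTB turned to 0.41, against −0.19. Without a wild type, neither limma nor the wild-type rule could be applied, as no spread is left. No paired analysis was possible because the compared groups hold 1 library each. The number of fragments behind each value is unknown, and the 2 libraries have no replicate.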
